A study of Mus musculus with 6 samples.

Results

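The genes of cellular iron handling were followed in 2-cell mouse embryos whose zygotes had been stripped of lipid droplets. The 9 genes were chosen by their known roles in the uptake, storage, export and sensing of iron, out of 48967 gene identifiers counted, and Slc40a1, which encodes ferroportin, was selected on its drop in these same libraries. The difference in Slc40a1 is therefore given as a description, without a test. Of the 9 genes, 8 passed the filter on low counts and 1, Steap3, did not.

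Iron reaches most cells bound to transferrin, which the transferrin receptor carries into endosomes. There a STEAP reductase reduces the iron and the transporter DMT1 moves it to the cytosol. Ferritin stores what is not used, and ferroportin is the exporter of iron from vertebrate cells. The iron regulatory proteins IRP1 and IRP2 bind hairpins called iron-responsive elements when iron is low, which blocks translation of messages with a hairpin in the 5′ UTR, such as those of ferritin and ferroportin, and stabilises the transferrin receptor message, which carries hairpins in its 3′ UTR.

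All embryos were wild type (wt) and of the strain F1 (C57Bl/10 X CBA/H), and they were cultured in vitro in fatty acid-free KSOM from 0.5 to 2.0 dpc and sampled on day 2 of development. Embryos of several hormone-stimulated females were mixed and allotted at random to the groups. Delipidated zygotes were treated with cytochalasin B and centrifuged, and their lipid droplets were aspirated through an opening in the zona pellucida, while control zygotes were cultured without manipulation, so that lipid removal and the handling that came with it cannot be told apart. Each of the 6 libraries, 3 per group, was made from a pool of 3 embryos and is called a pool here. Since the embryos of a group were mixed before they were split into pools, p-values measure only the spread between pools, which may be largely technical.

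The control pools held 12480952, 16582054 and 13318885 counts and the delipidated pools 20571131, 16762489 and 15066302. The control pools had counts for 22855, 22437 and 20582 genes and the delipidated pools for 17091, 19408 and 20158, so that every delipidated pool detected fewer genes than any control pool, although delipidated replicates 1 and 2 were deeper than all 3 control pools. The 10 markers of the 2-cell stage, genes switched on when the embryonic genome is first transcribed, were all counted in 5 libraries, and 9 of them in delipidated replicate 1. The 13 transcripts inherited from the oocyte were counted in every library. Control replicate 3 stood apart in a pair of steroid-producing enzymes, with 653 counts for Cyp11a1 and 607 for Hsd3b1 against at most 5 in any other library.

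Levels are in CPM, the count scaled to a common effective library size that corrects for differences in composition, and folds compare delipidated with control embryos. Across the 16020 genes that passed the filter, edgeR called 0 genes (0% of those tested) when both an adjusted p-value under 0.05 and an absolute log2 fold change over 1 were required. At an unadjusted p-value under 0.05 there were 184 genes with higher levels in delipidated embryos (1.15%) and 279 with lower levels (1.74%). DESeq2 without a filter on low counts called 9 genes as higher and 40 as lower. The groups did not overlap, with all 3 delipidated pools below all 3 control pools, for 809 genes (5.05%), and with all 3 above for 611 genes (3.81%).

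The iron exporter ferroportin had the largest difference among the 8 members tested. Slc40a1 (ENSMUSG00000025993, minus strand of chr1:45908068-45926523, GRCm38) was at 9.20, 8.59 and 11.4 CPM in the control pools and at 0.198, 0.369 and 0.918 CPM in the delipidated pools. These levels stood on 109, 142 and 150 counts in control embryos and on 4, 6 and 13 counts in delipidated embryos. The control pools lay close together and every delipidated pool lay far below them, although at such low counts the differences among the delipidated pools cannot be weighed. The group means were 9.73 ± 1.48 and 0.495 ± 0.376 CPM (SD, n = 3 each), a log2 fold change of −4.30 with an SE of 0.84. Among the 8 members tested, Slc40a1 alone did not overlap between the groups, the value for which it was selected. In bulk RNA from pooled embryos, fewer cells with the transcript and less RNA per cell cannot be told apart.

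The counts of Slc40a1 were not spread evenly over its exons. The full-length transcript Slc40a1-201 has 8 exons and 1710 coding bases, and a read that spans adjacent exonic parts is counted in each of them, so each exon is given here by its part with the highest count; reads that span a splice junction are still counted in each of its exons. Exon 1, which holds the 5′ UTR and the first 43 coding bases, had 13, 23 and 36 counts in the control pools and 0 in all 3 delipidated pools. Allowing 3 counts for a count of 0 in each library, its control mean of 1.74 CPM was at least 9.60-fold higher than in delipidated embryos. Exon 7, the longest coding exon with 639 bases, had 12, 10 and 16 counts in the control pools and 0 in each delipidated pool. Exon 8, which carries the end of the coding sequence and the 3′ UTR, had 35, 6 and 10 counts in the control pools and 4, 6 and 0 in the delipidated pools. At exon 8 the groups overlapped, while at exons 1 and 7 they did not.

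The 717 bases of exons 2 to 6 had few counts in any library, with 2, 19 and 2 in the control pools and 0, 0 and 3 in the delipidated pools. The 19 counts of control replicate 2 lay on a single part of exon 3. In that library the part at chr1:45919001-45919170, found in Slc40a1-204 alone, also had 19 counts. The counts on exon 3 therefore cannot be assigned to Slc40a1-201 alone, and the levels and folds below include them. Over all 8 exons counted in this way, control pools had 62, 58 and 64 counts and delipidated pools 4, 6 and 3. The mean level was 4.53 ± 0.908 CPM in control embryos and 0.259 ± 0.0949 CPM in delipidated embryos (SD, n = 3 each), 17.5-fold lower. Without exon 1 the levels were 4.13, 2.12 and 2.13 CPM in the control pools and 0.198, 0.369 and 0.212 CPM in the delipidated pools, 10.8-fold lower in the means, and the groups still did not overlap. Intervals and floors of this kind cover counting error only, and the reads carry no molecular identifiers that would show how many transcripts they came from.

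**Figure D1:**
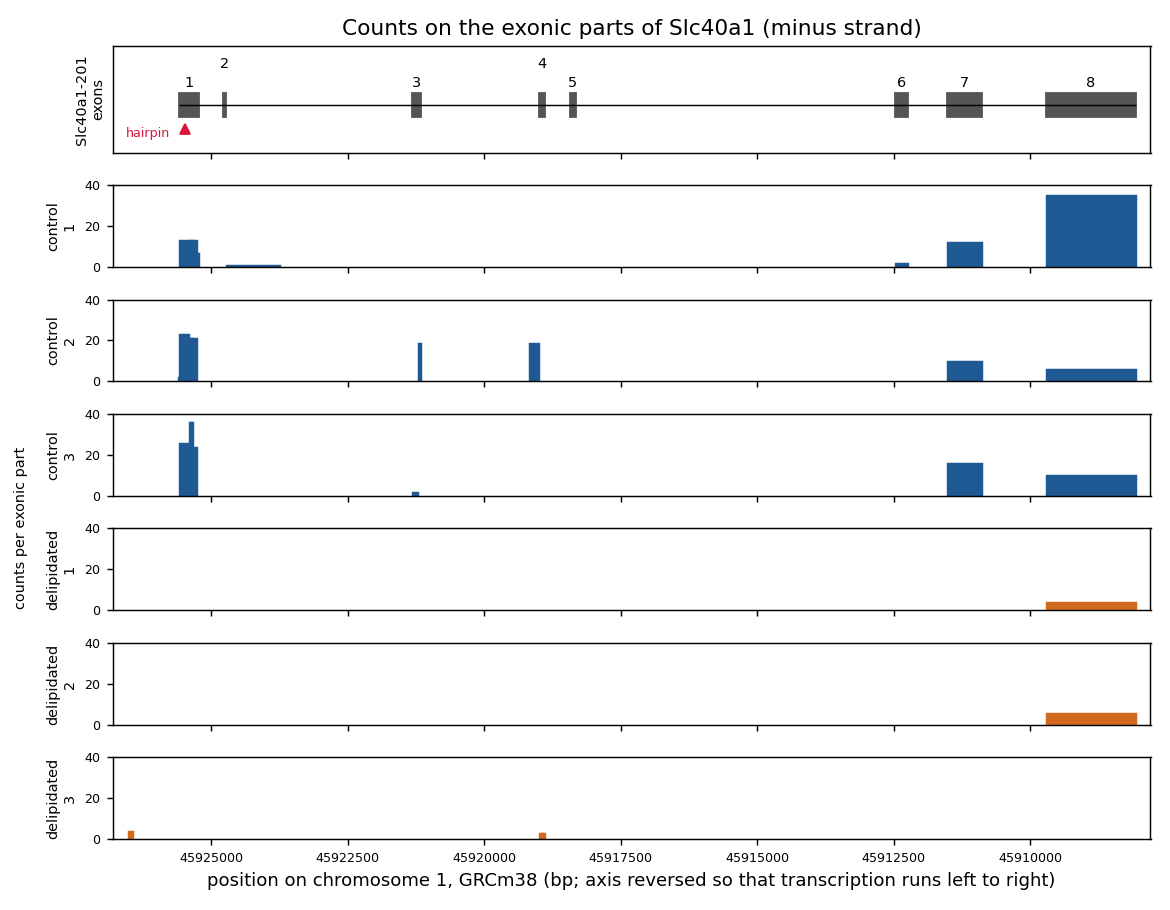
Counts on each exonic part of Slc40a1 in the 6 libraries, along chromosome 1 (GRCm38, in bp), with the exons of transcript Slc40a1-201 above and the iron-responsive element as a triangle; each bar is 1 part, its height the count, and adjacent parts share reads. The control pools have bars at exons 1, 7 and 8, and the delipidated pools reach at most 6 counts on any part.

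Some transcripts of Slc40a1 start upstream of Slc40a1-201. The part at chr1:45926424-45926519 is found in Slc40a1-202, which also holds the part with the hairpin, and in Slc40a1-203, Slc40a1-205 and Slc40a1-206, which do not. It had 0 counts in all 3 control pools and in delipidated replicates 1 and 2, and 4 counts in delipidated replicate 3. These 4 counts are too few for a comparison. The part that holds the hairpin, chr1:45925409-45925582, had 13, 23 and 26 counts in the control pools and 0 in each delipidated pool.

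The hairpins themselves are shown because they set apart the messages that the iron regulatory proteins bind. Transcripts were searched for a C, any 5 bases, the loop CAGTGN and 5 bases that pair with the first 5, with G to U pairs allowed, within the UTRs and on the transcribed strand alone. Of 21866 protein-coding genes, 160 (0.73%) held such a match and 437 (2%) held it when 1 unpaired base in the 3′ arm was allowed as well. Of the 9 genes listed for a known hairpin, 6 had a full match and 8 a match of either kind; for Cdc14a none was found with these letters. A match is a match of letters and does not show binding. The sequences are from the GENCODE transcripts on GRCm38, written 5′ to 3′ as DNA, with the loop in capitals.
Slc40a1, 5′ UTR, minus strand of chr1:45925466-45925492: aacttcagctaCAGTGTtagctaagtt
Fth1, 5′ UTR, plus strand of chr19:9982733-9982759: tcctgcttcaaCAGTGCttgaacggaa
Ftl1, 5′ UTR, minus strand of chr7:45459780-45459806: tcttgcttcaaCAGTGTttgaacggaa
Slc11a2, 3′ UTR, minus strand of chr15:100395153-100395180: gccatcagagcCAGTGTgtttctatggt
Tfrc, 3′ UTR, plus strand of chr16:32631220-32631246: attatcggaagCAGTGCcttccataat
Tfrc, 3′ UTR, plus strand of chr16:32631599-32631625: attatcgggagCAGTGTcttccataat
Tfrc, 3′ UTR, plus strand of chr16:32631664-32631690: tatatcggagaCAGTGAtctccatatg
Tfrc, 3′ UTR, plus strand of chr16:32631711-32631737: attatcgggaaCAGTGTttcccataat
The hairpin of Slc11a2 is the form with 1 unpaired base in the 3′ arm. Ferroportin and both ferritins carry a single match each in the 5′ UTR, and the transferrin receptor carries 4 full matches in the 3′ UTR.

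Among the other messages listed for a hairpin, the groups overlapped for every gene. All 9 genes of this list passed the filter, with 3 positive and 6 negative log2 fold changes, and a median of −0.27 beside a median of −0.000726 over all genes tested. Without Slc40a1 the median was −0.22, and 0 of the other 8 genes were under an unadjusted p-value of 0.05. The part of Fth1 with the hairpin had 350, 705 and 632 counts in the control pools and 585, 461 and 584 in the delipidated pools. For Ftl1 the corresponding part had 56, 93 and 197 counts in the control pools and 148, 135 and 61 in the delipidated pools. The groups overlapped at both ferritin hairpins. The highest log2 fold change of the list was that of Cdc14a, a cell cycle phosphatase, at 0.35 (SE 0.59), and at 2.37 from its part with the most counts alone.

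The genes whose levels over the 6 libraries were most like those of Slc40a1, by the correlation of log2(CPM + 1) among 14798 genes, were Arrb1, Tet2, Vim, Plekhb1 and Gm14261, with Pearson's r of 0.992, 0.986, 0.984, 0.982 and 0.980. The 6 points share the split into groups for which Slc40a1 was selected, so genes that differ between the groups rank high. Arrb1, a beta-arrestin, was at 11.8, 14.8 and 16.4 CPM in the control pools and at 1.09, 1.23 and 1.41 CPM in the delipidated pools. Tet2, an enzyme of DNA demethylation, was at 20.5, 24.2 and 23.8 CPM in the control pools and at 10.9, 10.5 and 12.8 CPM in the delipidated pools. Vim, an intermediate filament of mesenchymal cells, had 152, 145 and 300 counts in the control pools and 0 in each delipidated pool. In none of these 3 did the groups overlap.

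Slc40a1 is strongly expressed in macrophages, and other cells could have been carried over with the embryos, so markers of such cells are given beside it. The cumulus cells around the zygotes had been taken off with hyaluronidase and the zygotes then washed. Of 16 macrophage and leukocyte markers, 15 had counts in control embryos and 11 in delipidated embryos. Their summed level was 59.5, 36.8 and 45.0 CPM in the control pools and 39.8, 51.1 and 47.4 CPM in the delipidated pools, and the groups overlapped (exact permutation p = 1.00, two-sided, n = 3 each, where the smallest possible p is 0.1). Mrc1, the most abundant, made up 61.8% of the sum and was at 34.4, 16.1 and 28.3 CPM in the control pools and at 29.8, 35.4 and 28.8 CPM in the delipidated pools. The markers Adgre1, Cd14, Lyz2, C1qa and Tyrobp had 0 counts in all 3 delipidated pools and between 5 and 27 counts in all in control embryos. Others of the list went the other way, with 14, 0 and 0 counts in the control pools and 17, 31 and 24 in the delipidated pools for C1qb, 5, 0 and 0 against 0, 45 and 0 for C1qc, and 0 in each control pool against 0, 0 and 15 for Fcer1g. The part of these markers in the levels of Slc40a1 was not tested.

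Of 11 stromal and endothelial markers, 10 had counts in control embryos and 6 in delipidated embryos. Their summed level was 67.5, 61.1 and 58.8 CPM in the control pools and 81.1, 32.4 and 31.8 CPM in the delipidated pools (exact permutation p = 0.4, two-sided, n = 3 each). The most abundant was Pecam1, which made up 66.8% of the sum, so the sum mostly follows that gene. Vim, Col1a1, Col3a1, Lum and Pdgfrb were at 0 in every delipidated pool. Dcn had 0 counts in each control pool and 0, 0 and 27 in the delipidated pools, Col1a2 14, 48 and 15 against 0, 0 and 27, and Cdh5 23, 7 and 4 against 161, 13 and 2, with a log2 fold change of 1.74 (SE 1.47). On its part with the highest count, Vim was at least 13.6-fold lower in delipidated embryos, and at least 8.65-fold lower without control replicate 3. Col1a1 had 11, 26 and 42 counts in the control pools. The part of these markers in the result for Slc40a1 was not tested.

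Of 13 cumulus and granulosa markers, 11 had counts in control embryos and 7 in delipidated embryos, with summed levels of 21.2, 28.2 and 128 CPM in the control pools and 12.0, 32.2 and 18.8 CPM in the delipidated pools (exact permutation p = 0.4, two-sided, n = 3 each). Amhr2 had the highest mean over the 6 libraries, and Ptx3 and Foxl2 were at 0 in all 6 libraries. Of the 10 erythroid markers in the annotation, out of 11 listed, 6 had counts in control embryos and 4 in delipidated embryos, with sums of 51.1, 61.7 and 59.2 CPM in the control pools and 54.7, 66.9 and 25.3 CPM in the delipidated pools (exact permutation p = 0.8, two-sided, n = 3 each). Gata1 made up 90.9% of that sum, while Hbb-bs, Hbb-bt and Rhag were at 0 in all 6 libraries. Of 6 oviduct epithelium markers, 4 had counts in control embryos and 5 in delipidated embryos, with sums of 2.70, 7.38 and 9.50 CPM in the control pools and 17.6, 8.35 and 8.40 CPM in the delipidated pools (exact permutation p = 0.4, two-sided, n = 3 each), led by Muc16, with Sntn at 0 in all 6. The part of these 3 lists in the results was not tested.

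The summed level of the 2-cell markers, led by Obox3, was 505, 250 and 467 CPM in the control pools and 289, 387 and 534 CPM in the delipidated pools (exact permutation p = 1.00, two-sided, n = 3 each). That of the oocyte transcripts, led by Dppa3, was 2754, 2006 and 2618 CPM in the control pools and 2403, 2343 and 3187 CPM in the delipidated pools (exact permutation p = 0.7, two-sided, n = 3 each). In both lists the groups overlapped.

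The remaining genes of the export list are ferroxidases, which oxidise the iron that ferroportin releases. Hephl1 had 20, 46 and 20 counts in the control pools and 11, 24 and 0 in the delipidated pools, with a log2 fold change of −1.56 (SE 1.51), and on its CPM the groups did not overlap, with delipidated pools below control pools. Cp, ceruloplasmin, had the highest log2 fold change of the list at 0.86 (SE 1.65), on 13, 10 and 0 counts in the control pools and 35, 13 and 8 in the delipidated pools. Without delipidated replicate 1 the value for Cp was 0.26, and without control replicate 1 it was 1.73. Heph had 0 counts in all 6 libraries. The SEs of Hephl1 and Cp were about as large as the differences or larger, and both genes lay far below the ferritins in level.

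Among the genes of iron uptake, the transferrin receptor was the most abundant per length. Tfrc (ENSMUSG00000022797, plus strand of chr16:32608920-32632794) was at 302, 494 and 260 CPM in the control pools and at 512, 466 and 254 CPM in the delipidated pools. Control replicate 2 lay between delipidated replicates 1 and 2, delipidated replicate 3 was the lowest of all 6, and the groups overlapped. The log2 fold change was 0.22 (SE 0.30), with means of 352 ± 125 and 411 ± 138 CPM (SD, n = 3 each). The difference was smaller than the spread within either group.

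Slc11a2 encodes DMT1, the transporter that moves ferrous iron out of endosomes. It lies on the minus strand of chr15:100387898-100425072 (ENSMUSG00000023030) and was at 43.5, 47.7 and 45.0 CPM in the control pools and at 25.0, 43.9 and 33.7 CPM in the delipidated pools. The control pools were nearly equal and the delipidated pools spread more widely, with replicate 2 inside the control range. The log2 fold change was −0.41 (SE 0.32), and −1.32 (SE 0.71) from the part with the most counts alone. Parts that overlap the antisense gene Gm5475 held 5.84% of its counts, which cannot be assigned to a strand here.

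Slc11a2 ends in alternative terminal exons, only one of which carries the hairpin. The part of the terminal exon with the hairpin, chr15:100392563-100395269, had 43, 63 and 22 counts in the control pools and 5, 50 and 15 in the delipidated pools. The terminal exon without it, chr15:100387898-100389161, had 3, 44 and 28 counts in the control pools and 28, 14 and 10 in the delipidated pools. The part with the hairpin is longer, so the counts describe the split within a library and are not a ratio of transcripts. It took 93.5%, 58.9% and 44.0% of the counts on both ends in the control pools and 15.2%, 78.1% and 60.0% in the delipidated pools. The share varied widely within each group and the groups overlapped.

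Steap3 encodes the main endosomal ferrireductase of red cell precursors. Steap3 (ENSMUSG00000026389, minus strand of chr1:120190757-120272705) had 2, 7 and 30 counts in the control pools and 0 in each delipidated pool, and did not pass the filter. All of its control counts lay on terminal exons, 22 of the 30 in control replicate 3 on the part at chr1:120226653-120227928, which Steap3-201, Steap3-202, Steap3-203 and Steap3-204 share. From the part with the highest count in each library, 2, 4 and 22, its mean was at least 3.83-fold lower in delipidated embryos, and at least 1.13-fold lower without control replicate 3. Control replicate 3 thus carried most of the counts, and the other libraries were at or near the floor of 3 counts.

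Of the 15 genes of iron uptake, 6 passed the filter, with 3 positive and 3 negative log2 fold changes and 0 under an unadjusted p-value of 0.05. The most positive was Mcoln1, the endolysosomal channel mucolipin 1, at 0.49 (SE 0.65), with 173, 84 and 95 counts in the control pools and 114, 138 and 334 in the delipidated pools. Delipidated replicate 3 was the highest of the 6, and without it the log2 fold change of Mcoln1 was −0.35. The most negative was Steap1, a metalloreductase, at −1.47 (SE 1.77), with 29, 17 and 52 counts in the control pools and 0, 0 and 38 in the delipidated pools. Delipidated replicate 3 lay within the control range, and without it the log2 fold change was −8.28, a fitted value against a group at 0. Tfr2, the second transferrin receptor, failed the filter with 5, 22 and 15 counts in the control pools and 0, 1 and 0 in the delipidated pools. Of others that failed it, Steap4 had 6, 0 and 0 counts in the control pools and 0, 28 and 0 in the delipidated pools, and Slc39a8 had 43, 4 and 0 against 44, 0 and 3.

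The ferritin chains were counted in all 6 libraries. Fth1, the ferritin heavy chain (ENSMUSG00000024661, plus strand of chr19:9980598-9985098), was at 93.0, 139 and 195 CPM in the control pools and at 105, 103 and 136 CPM in the delipidated pools. All delipidated pools lay inside the control range. The log2 fold change was −0.31 (SE 0.28), and −0.02 without control replicate 3, which was the highest library. Ftl1, the ferritin light chain (ENSMUSG00000050708, minus strand of chr7:45457944-45459884), was at 28.4, 46.3 and 106 CPM in the control pools and at 44.9, 78.9 and 36.1 CPM in the delipidated pools. Again control replicate 3 was the highest and the delipidated pools fell inside the control range, with a log2 fold change of −0.17 (SE 0.46) that turned to 0.51 without that library and to 0.04 without delipidated replicate 3. Ferritin genes have processed pseudogenes that can take or hide reads, and parts shared with Gm10252 on the opposite strand held 28.4% of the counts of Ftl1, so both levels are uncertain.

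Ncoa4 encodes the receptor that delivers ferritin to the lysosome for the release of its iron. Ncoa4 (ENSMUSG00000056234, plus strand of chr14:32159865-32179855) was at 43.7, 20.6 and 31.8 CPM in the control pools and at 31.1, 51.3 and 58.8 CPM in the delipidated pools. Delipidated replicates 2 and 3 lay above all control pools and replicate 1 lay among them. The log2 fold change was 0.56 (SE 0.38), the most positive of the 8 members tested, with means of 32.0 ± 11.6 and 47.1 ± 14.3 CPM (SD, n = 3 each).

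Of the 7 storage genes, 6 passed the filter, with 2 positive and 4 negative log2 fold changes between −0.31 and 0.56, none under an unadjusted p-value of 0.05, and a median of −0.06. Fth1 was both the most abundant per length and the most negative of them, and Ncoa4 the most positive. Ftmt, the mitochondrial ferritin, had 0 counts in all 6 libraries. The iron chaperones Pcbp1 and Pcbp2, which hand iron to ferritin, had log2 fold changes of −0.10 (SE 0.26) and 0.22 (SE 0.21).

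The groups overlapped for both sensors of cytosolic iron. Ireb2, which encodes IRP2 (ENSMUSG00000032293, plus strand of chr9:54863789-54912530), was at 456, 403 and 439 CPM in the control pools and at 290, 382 and 532 CPM in the delipidated pools. The delipidated pools spread to both sides of the control pools. The log2 fold change was −0.11 (SE 0.22), and 0.08 without delipidated replicate 1. Aco1, which encodes IRP1 (ENSMUSG00000028405, plus strand of chr4:40143081-40198338), was at 12.5, 10.3 and 11.9 CPM in the control pools and at 8.74, 8.11 and 20.0 CPM in the delipidated pools. Delipidated replicates 1 and 2 lay below the control pools and replicate 3 above them, so that the log2 fold change of 0.08 (SE 0.51) turned to −0.46 without replicate 3. From the part with the most counts alone it was 1.08 (SE 1.21).

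For the 7 members tested other than Slc40a1, the adjusted p-value of edgeR's quasi-likelihood test was 1.00 in each case, and over all alternatives it ran from 0.718 to 1.00. A p-value that misses the threshold does not show equal levels.

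**Figure D2:**
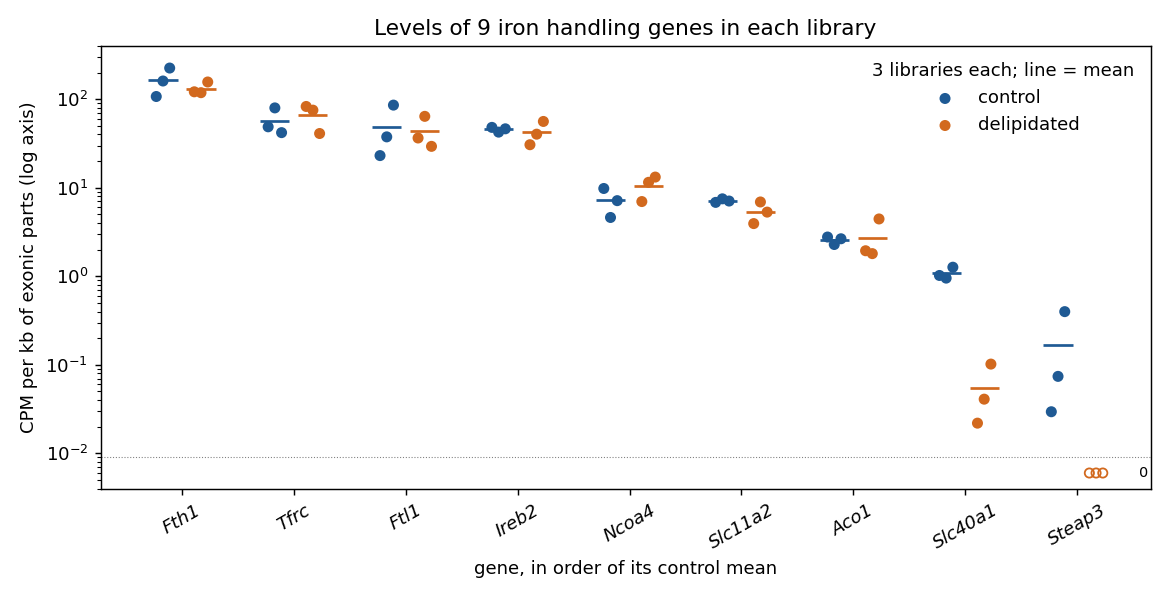
Level of each of the 9 genes in each library, in CPM per kb of exonic parts on a log axis, with control pools in blue, delipidated pools in orange and a line at each mean (n = 3); open circles under the dotted line are levels of 0. Slc40a1 and Steap3 are the least abundant genes, and the counts of Steap3 are at or near the floor in all libraries but control replicate 3.

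Per kb of exonic parts, control embryos had Fth1 highest at 164 CPM per kb, followed by Tfrc at 56.9, Ftl1 at 48.8 and Ireb2 at 45.6, and then by Ncoa4 at 7.20, Slc11a2 at 7.14, Aco1 at 2.57, Slc40a1 at 1.08 and Steap3 at 0.168 CPM per kb. Delipidated embryos had the same order, with Fth1 at 132, Tfrc at 66.4, Ftl1 at 43.3, Ireb2 at 42.4, Ncoa4 at 10.6, Slc11a2 at 5.39, Aco1 at 2.73 and Slc40a1 at 0.0550 CPM per kb, and Steap3 at 0. Tfrc, Ftl1 and Ireb2 did not differ from one another beyond their spread, nor did Ncoa4 and Slc11a2 in control embryos. The level of IRP2 message was far above that of IRP1 message in every library. Among all genes tested, the mean CPM of Ireb2 and Tfrc exceeded that of 97.2% and 96.9% of genes, and that of Slc40a1 exceeded 37.3%.

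The genes varied unequally among libraries of 1 group. In control embryos the coefficient of variation was 4.68% for Slc11a2, 6.25% for Ireb2, 9.92% for Aco1 and 15.2% for Slc40a1. It was 67.3% for Ftl1, and between these for Tfrc, Fth1 and Ncoa4. In delipidated embryos it ran from 16.0% for Fth1 to 76.1% for Slc40a1, whose counts there were few. Slc11a2, Ireb2 and Aco1 were thus more even among control pools than among delipidated pools, while Fth1, Ftl1, Ncoa4 and Tfrc went the other way. For these last genes the coefficients were 35.9%, 67.3%, 36.1% and 35.5% in control and 16.0%, 42.3%, 30.4% and 33.6% in delipidated embryos. None of these differences was tested.

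Of the 10 genes that regulate iron at the level of the cell or the body, 6 passed the filter, with 3 positive and 3 negative log2 fold changes, a median of −0.03 and 0 under an unadjusted p-value of 0.05. Neo1, neogenin, a co-receptor of the hepcidin pathway, was the most positive at 0.43 (SE 0.32), with 33.0 ± 3.83 CPM in control and 44.6 ± 10.5 CPM in delipidated embryos (SD, n = 3 each). Among the 6 it was the single gene whose groups did not overlap, with delipidated pools above control pools, beside 3.81% of all genes tested. From the part with the most counts alone the log2 fold change of Neo1 was 1.72. Erfe, erythroferrone, was the most negative at −0.18 (SE 0.79), and 0.90 without control replicate 1. Fbxl5, the ubiquitin ligase subunit that removes IRP2 when iron is high, had a log2 fold change of −0.07 (SE 0.24). Hamp, which encodes the hormone hepcidin that degrades ferroportin, failed the filter with 10, 6 and 13 counts in the control pools and 0 in each delipidated pool, and its paralogue Hamp2 failed it with 0 in each control pool and 0, 0 and 6 in the delipidated pools.

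All 6 transcription factors linked to iron and heme passed the filter, with 3 positive and 3 negative log2 fold changes and a median of 0.0043. Hif1a, the oxygen-sensitive factor, had the highest level per length at 19.7 CPM per kb and a log2 fold change of 0.06 (SE 0.34). The range ran from −0.35 (SE 0.32) for Bach1, the heme-sensing repressor, to 0.13 (SE 0.21) for Mtf1, the metal-responsive factor. Spic, a factor of iron-recycling macrophages, had 736, 904 and 645 counts in the control pools and 1778, 1019 and 156 in the delipidated pools. Spic thus had the highest and the lowest library within the delipidated group.

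Iron-sulfur clusters are built on a mitochondrial scaffold and passed to enzymes in both mitochondria and cytosol. Of the 28 genes of this list, 27 passed the filter, with 13 positive and 14 negative log2 fold changes and a median of −0.04.

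Hspa9, the mitochondrial chaperone that hands clusters on, was the most abundant of the cluster genes per length, with a log2 fold change of 0.06 (SE 0.17). Nubp1, a cytosolic scaffold, was the most positive at 0.74 (SE 1.73), on 0, 76 and 0 counts in the control pools and 116, 14 and 16 in the delipidated pools, and the value was −0.63 without delipidated replicate 1. Slc25a37, mitoferrin 1, failed the filter with 13, 0 and 28 counts in the control pools and 0 in each delipidated pool. Slc25a28, mitoferrin 2, passed it with a log2 fold change of −0.58 (SE 0.35).

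Of the 17 genes of heme synthesis and turnover, 16 passed the filter, and 3 of these 16 had lower levels in delipidated embryos at an unadjusted p-value under 0.05, beside 1.74% of all genes tested. In this list 5 log2 fold changes were positive and 11 negative, with a median of −0.26. Urod, which decarboxylates uroporphyrinogen, had 466, 1009 and 399 counts in the control pools and 245, 414 and 253 in the delipidated pools, and a log2 fold change of −1.24 (SE 0.41). Uros, which makes the substrate of Urod, had 21, 73 and 27 counts in the control pools and 0, 0 and 8 in the delipidated pools, and a log2 fold change of −3.86 (SE 1.76). Without delipidated replicate 3 it was −8.43, a fitted value against a group at 0, and without replicate 1 it was −3.26. Flvcr2, a transporter once described as a heme importer, was at 47.5 ± 13.0 CPM in control and 26.2 ± 1.81 CPM in delipidated embryos (SD, n = 3 each), with a log2 fold change of −0.86 (SE 0.34). The groups did not overlap for any of these 3 genes, nor for Ppox, the next to last enzyme of the pathway, at −0.89 (SE 0.52). All 4 had delipidated pools below control pools, 4 of the 16 genes beside 5.05% of all genes tested. Under the alternatives that gave a value, the unadjusted p-value was under 0.05 in 13 of 15 for Urod, 8 of 13 for Uros and 11 of 15 for Flvcr2.

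None of these heme genes passed correction, with an adjusted p-value of 1.00 in edgeR for each, and over the alternatives it ran from 0.257 to 1.00 among the 17 iron genes other than members that the naming rule takes. Blvra, a biliverdin reductase, was the most positive heme gene at 1.10 (SE 0.78), with 61, 45 and 47 counts in the control pools and 355, 62 and 44 in the delipidated pools, and at −0.14 without delipidated replicate 1. Hmox2, the constitutive heme oxygenase, had the highest level per length over all 6 libraries, though in control embryos Urod was higher at 16.8 against 14.5 CPM per kb, and Hmox2 had a log2 fold change of −0.28 (SE 0.35). Alas1, which starts heme synthesis outside red cells, had a log2 fold change of 0.26 (SE 0.45), and Fech, which inserts the iron, of 0.56 (SE 0.64). The log2 fold changes of consecutive enzymes of the pathway thus differed in sign.

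Over all 8 lists, which hold 89 genes, 72 passed the filter and 0 were called by edgeR, 32 log2 fold changes were positive and 40 negative, and the median was −0.07. Slc40a1 was selected on this contrast and is left out of the counts that follow. Of the other 71 genes, 4 had lower levels in delipidated embryos at an unadjusted p-value under 0.05, beside 1.74% of all genes tested, and 0 had higher levels, beside 1.15%. The groups did not overlap for 7 genes with delipidated pools below control pools, beside 5.05% of all genes tested, and for 1 gene with them above, beside 3.81%. The lists were not tested against these shares.

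**Figure D3:**
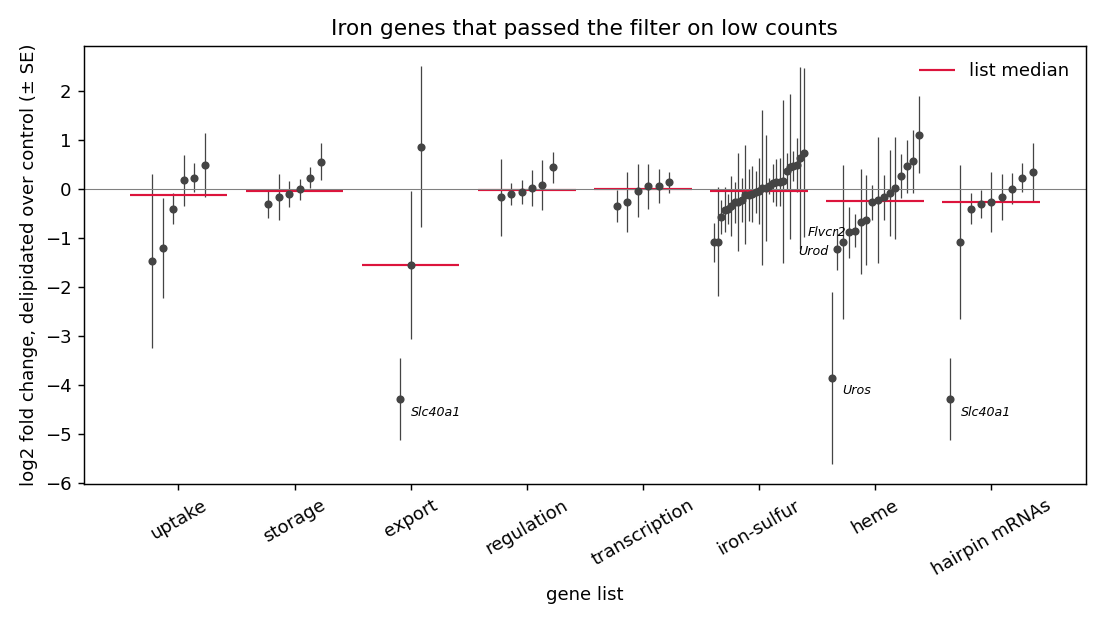
Log2 fold change of each iron gene that passed the filter, delipidated over control embryos, with its SE as a bar, by gene list, and the median of each list as a red line; Slc40a1 and the heme genes under an unadjusted p-value of 0.05 are named. The medians lie between −0.27 and 0.0043 except for the 3 tested export genes, whose median is the value of Hephl1 at −1.56.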

How the data were processed

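RNA was sequenced from 3 control and 3 delipidated libraries after ribosomal RNA had been depleted from total RNA. The authors deposited raw counts per exonic part, made per the labels with Trimmomatic 0.36, STAR 2.5.2b and featureCounts on mm10 (GRCm38); only unique reads within exons were counted, and whether strand was used is not given in the sources used here. Genes that overlap on opposite strands, near-identical copies and pseudogenes are therefore uncertain.

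Parts were summed per Ensembl gene identifier. Of 425461 parts, 33309 were under 1194 joined identifiers of overlapping genes, and 27968 of these were assigned to the 1 gene whose exons they overlap; the rest, 2.49% to 2.57% of a library's counts, were left out. Reads that span adjacent parts enter each of them, so sums overstate reads and their precision. All reads of Ftl1 lay under a joined identifier.

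The comparison was made in R 4.3.3 by edgeR 4.0.16 (filterByExpr at min.count 10 and min.total.count 15, TMM, quasi-likelihood test without covariates), tested on simulated data first. There it recovered 3 of 50 genes set to differ 2-fold (6%) and 15 of 50 set at 4-fold (30%). It recovered 22 of 50 genes at 8-fold (44%) and 33 of 50 at 16-fold (66%). It also called 6 unchanged genes, with 14747 genes tested. The common biological coefficient of variation was 0.663. P-values were adjusted by Benjamini and Hochberg over all 16020 genes tested. Alternatives were DESeq2 1.42.0 without a filter, DESeq2 size factors, limma-voom (limma 3.58.1), no filter, a filter at a mean count of 50, joined identifiers left out, the part with the most counts, library sizes without mitochondrial and rRNA genes, a replicate block, and leaving out each library. Marker sums were compared by an exact permutation test over the 6 libraries. A count of 0 was taken as at most 3 counts in a library.

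Named genes are the 9 members; from each of 8 iron lists the gene with the highest CPM per kb, those with the most positive and most negative log2 fold change, and every gene under an unadjusted p-value of 0.05; the most abundant gene of each of 7 marker lists; and the 5 genes most like Slc40a1 with a mean of at least 1 CPM. Further genes were named after their values were seen, and some genes that the rule takes are not reported here. Members and lists were chosen with earlier results of these data known.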

Additional observations from a re-analysis of the deposited data

How the results depend on the processing

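Counts of called genes depended on the filter. DESeq2 with no filter called 9 genes as higher and 40 as lower, and edgeR with no filter 5 and 25, against 0 and 0 in the other 13 alternatives; without a filter the median of all genes shifted by −0.17 on the log2 scale. Slc40a1 was called in both, at an adjusted p-value of 2.59e-05 in DESeq2 and 0.0386 in edgeR (2.59e-05 to 1.00 over its alternatives), and no other iron gene was. Since Slc40a1 was selected on this contrast, these are no test of it. Its log2 fold change was between −7.75, with the part with the most counts, which has 0 counts in each delipidated pool so that the value is a fit against a group at 0, and −3.91, without delipidated replicate 1.

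Of 367 values of the 25 genes taken by the naming rule under the alternatives, 346 kept their sign and their side of the threshold, and 19 changed sign. The value for Aco1 was −0.070 with limma-voom and −0.041 with the replicate block, and that for Erfe was 0.27 and 0.23. With the part with the most counts, Mcoln1 was at −0.056 and Mtf1 at −0.22, and, with the sign kept, Slc11a2 was at −1.32, Aco1 at 1.08, Neo1 at 1.72, Cdc14a at 2.37 and Blvra at 0.49; the cause was not tested. With limma-voom and the replicate block Steap1 was at −4.07 and −4.51, Cp at 1.73 and 1.55, Nubp1 at 3.11 and 4.29 and Uros at −5.14 and −5.49. Leaving out each library in turn gave −0.57 to 0.51 for Ftl1, −0.37 to 0.079 for Ireb2, −0.46 to 0.31 for Aco1, −0.35 to 1.05 for Mcoln1, −0.60 to 0.90 for Erfe, −0.32 to 0.41 for Hif1a, −0.012 to 0.16 for Hspa9, −0.63 to 8.29 for Nubp1 (the latter a fit against a group at 0), −0.14 to 1.48 for Blvra and −0.043 to 0.97 for Cdc14a.

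The replicate block called 0 genes. Same-numbered libraries had correlations of −0.133, 0.106 and 0.065, so the numbers do not pair the libraries. At the few counts of Steap3, Hamp and Slc25a37, which failed the filter, edgeR with the filter gave no value.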
